A study of Mus musculus with 12 samples.

Results

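WNT proteins are secreted signals that carry a lipid, added by the enzyme Porcn, and bind Frizzled receptors on the cell surface. With an LRP5 or LRP6 co-receptor they stabilise beta-catenin, which then acts with TCF and LEF factors on target genes, while ROR and RYK co-receptors serve branches that do not use beta-catenin. R-spondins, bound by LGR receptors, keep Frizzleds on the surface by holding back the ubiquitin ligases Rnf43 and Znrf3. DKK proteins block the LRP co-receptors, and SFRP proteins, Frzb and Wif1 bind WNT ligands outside the cell. In fibroblasts of the embryo, WNT signals are known for patterning connective tissue and for steering matrix production.

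The levels of 57 listed WNT ligands, receptors, antagonists and signalling components were followed through the first days of conversion of mouse embryonic fibroblasts to motor neurons. All 57 symbols were found in the deposited table of 23077 genes. Of these, 49 reached a value of 10 in 3 or more libraries and were tested together with the other genes that passed the same filter, 14207 in all. The 8 left out were Wnt2b, Wnt7a, Wnt10b, Fzd10, Rnf43, Dkk1, Sfrp4 and Sfrp5. At the edge of that filter, the third-highest value was 9.71 for Dkk1 and 9.48 for Fzd10, and 13.5 for Wnt16 and 20.3 for Wnt2. A member that passed through the group in which it was high had a head start in any comparison, so counts over the 49 describe them and support nothing further.

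The fibroblasts were primary cells that carry the Hb9::GFP reporter, and all 4 groups received a retrovirus encoding Ngn2, Isl1 and Lhx3 on 1 transcript (NIL). The group called NIL received no other virus. SDD also received SNAP-p53DD, a SNAP-tagged fragment of p53 that blocks p53. SDDIR and RISDD received that fusion and constitutively active HRAS(G12V) from 1 transcript joined by an IRES, an internal ribosome entry site. SDDIR has HRAS behind the IRES and RISDD has it in front, with the fusion in the other place. All cells were put into N3 medium, which contains BDNF, GDNF, CNTF and FGF, on day 3 after infection and collected on day 4. RepSox, which inhibits the type I TGF-beta receptor kinase, was added from day 3 in every group but NIL. Sorting kept live single cells in NIL and SNAP-positive cells elsewhere. SDD therefore differs from NIL in p53DD, RepSox and the sort at once, and these cannot be told apart. Between SDDIR and RISDD, the place of HRAS and that of the SNAP-tagged fusion used for sorting both differ, and cannot be told apart either. NIL, SDD and RISDD had 3 libraries each. The heading of SDDIR B stands on 2 identical columns, so SDDIR had 2. The animals behind the fibroblasts are not described in the labels, and the replicates are not said to come from separate cultures. The p-values therefore measure only the spread between these libraries.

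Libraries held 14872639 to 29815073 reads. Values are gene counts scaled to each library, called signal here, and folds, differences and standard errors (SE) are on the log2(value + 1) scale. Trp53, whose row also counts p53DD, was at 2873 to 3674 in NIL and 29277 to 46185 in the other groups, while Hras was at 1088 to 1234 in RISDD and 830 to 2342 elsewhere, so its row did not check the HRAS labels. NIL C stood apart, with 0.537% of its signal on mitochondrially encoded genes against 2.604% to 4.04% in the other libraries. All 10 fibroblast markers were kept, and their summed signal was 819191 to 1324170 in NIL, 632341 to 749593 in SDD, 234905 to 268531 in SDDIR and 188264 to 204221 in RISDD. The summed signal of 9 epithelial markers was 898 to 999 in NIL and 61.4 to 77.8 in SDD, with 3 markers lower in SDD. From SDD on it went the other way, to 2447 to 3777 in SDDIR and 8703 to 12781 in RISDD. Krt8 and Krt18 made up most of that rise, Cdh1 was at 0 in all 3 SDD libraries and at 71.7 to 314 in RISDD, and Krt5, Krt14 and Esrp1 did not pass the filter or had no row. The 10 neuronal and motor neuron markers summed to 2447 to 4962 in NIL, 6348 to 11496 in SDD, 4503 to 4729 in SDDIR and 9770 to 10794 in RISDD, with Chat at 0 throughout. Of the 8 kept, 6 were lower and 2 higher in RISDD than in SDD. In the same order of groups, the macrophage sum was 1226 to 5498, 301 to 766, 361 to 603 and 788 to 1280.2, and the Schwann cell sum 354 to 566, 100.1 to 199, 187 to 273 and 329 to 423. The endothelial sum was 139 to 221, 158 to 169.6, 293 to 295 and 645 to 747, with 4 of 5 kept markers higher in RISDD than in SDD and Cldn5, Emcn, Erg, Tek and Tie1 not kept. The muscle sum was 2136 to 3264, 1105 to 2426, 4289 to 5382 and 5883 to 6139, with Myod1, Myog, Myf5 and Pax7 not kept. In whole sorted populations, fewer cells of a type and less RNA per cell cannot be told apart. The fibroblast, epithelial, endothelial and muscle sums moved between SDD, SDDIR and RISDD, as many WNT genes below did. The macrophage and Schwann cell sums were higher in RISDD than in SDD, but their markers did not move alike. There, 1 macrophage marker was higher and 2 were lower, and 2 Schwann cell markers were higher and 2 lower. The neuronal sum was lower in SDDIR than in SDD. The part of any marker list in the WNT results was not tested.

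Across the 4 comparisons, 39 of the 49 tested WNT genes changed in at least 1, which means a Benjamini-Hochberg adjusted p under 0.05 in limma over all 14207 genes. Wnt2, Wnt4, Wnt11, Fzd3, Fzd4, Fzd6, Fzd9, Rspo1, Znrf3 and Axin1 changed in none (10 genes). Over all 14207 genes, 51.2% changed in at least 1 comparison. The R-spondin gene Rspo3 and the antagonist gene Dkk2 changed in all 4, as did 1.85% of all genes. The comparisons share libraries, SDD entering 3 of them, so their values are set side by side and not counted as separate evidence.

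From NIL to SDD, 2 of the 49 rose and 10 fell (24.5%), where 17.6% of all tested genes changed, 9.32% higher and 8.26% lower. From SDD to SDDIR, 7 rose and 13 fell (40.8%), against 22.5% of all genes, 8.66% higher and 13.9% lower. From SDD to RISDD, 9 rose and 23 fell (65.3%), against 42.6% of all genes, 20.0% higher and 22.6% lower. RISDD and SDDIR differed in 15 of the 49 (30.6%), 4 higher and 11 lower in RISDD, against 9.69% of all genes, 4.64% higher and 5.05% lower. The median log2 change of the 49 was -0.18, -0.50, -0.46 and -0.06 in that order, beside 0.05, 0.01, 0.02 and 0.01 over all genes. Beside SDD, 6 genes rose and 12 fell in both HRAS groups, and 0 were called in opposite directions. A further 3 rose and 11 fell with a call in RISDD alone, and 1 rose and 1 fell with a call in SDDIR alone. A call in 1 HRAS group alone is not a difference between the 2. Of the genes called in RISDD alone, Wnt9a, Lgr6, Fzd2, Nkd1 and Tcf7l2 passed in RISDD against SDDIR, and the others did not. Apcdd1 and Ctnnb1, called in SDDIR alone, did not pass there either. Over all genes, 7.75% rose and 12.4% fell in both HRAS groups, 12.2% rose and 10.2% fell with a call in RISDD alone, 0.887% rose and 1.39% fell with a call in SDDIR alone, and 0.106% were called in opposite directions. Leaving out 1 library moved 3 of these 4 counts by more than 1.5 times, and the RISDD against SDD count from 32 to between 29 (without SDD A) and 39 (without NIL C). The SDD against NIL count went from 12 to 19 without NIL C, 6 without SDD A and 7 without SDD C. The SDDIR against SDD count went from 20 to 32 without NIL C, where 44.8% of all genes changed. It fell without either SDDIR library, which left SDDIR with 1. The RISDD against SDDIR count went from 15 to 23 without NIL C, 6 without SDDIR A, 3 without SDDIR B, 9 without RISDD A and 8 without RISDD B.

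**Figure D1:**
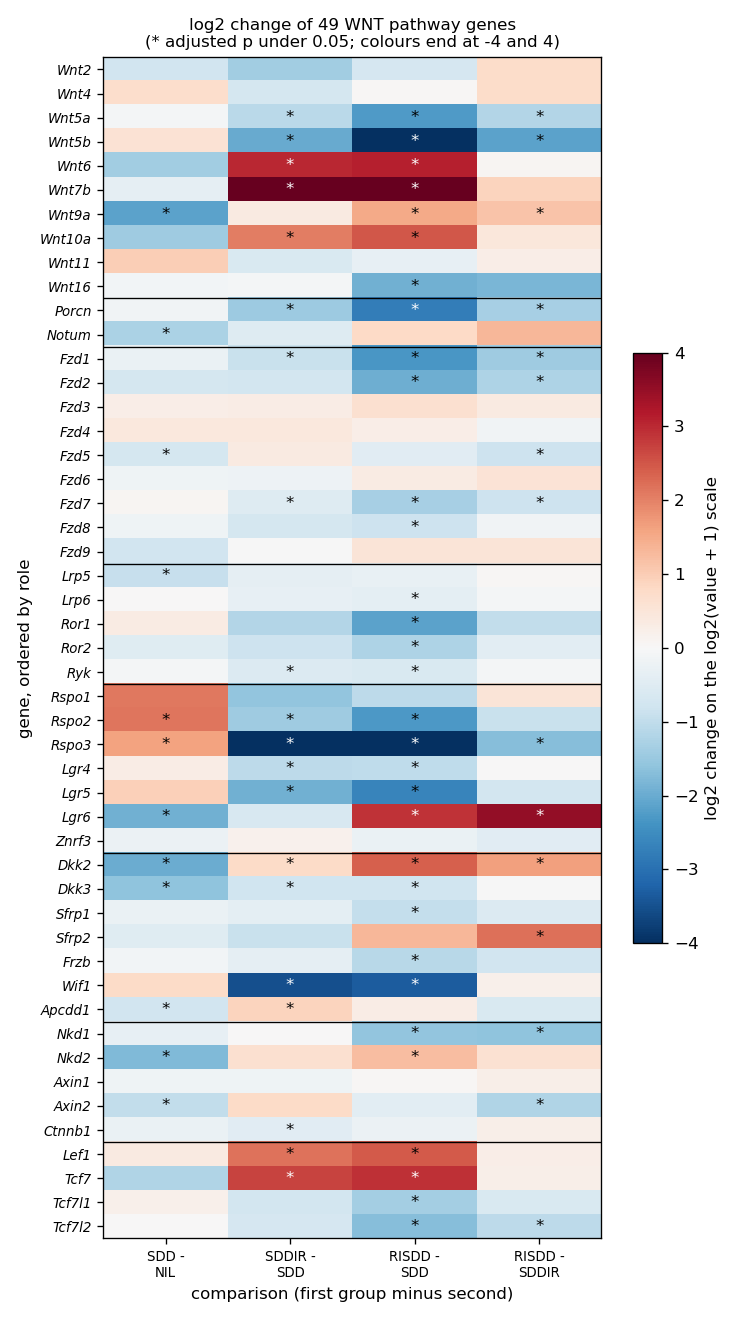
Rows are the 49 tested WNT genes in order of role and columns are the 4 comparisons; colour gives the log2 change of the first group minus the second, and an asterisk marks an adjusted p under 0.05. Blue cells with asterisks are most frequent in the RISDD against SDD column, where 23 genes fell and 9 rose, and the deepest red cells are Wnt7b in both HRAS groups.

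Among the ligands, Wnt5a and Wnt5b fell in both HRAS groups, and Wnt6, Wnt7b and Wnt10a rose in both. Of 10 tested ligand genes, 3 rose and 2 fell from SDD to SDDIR, and 4 rose and 3 fell from SDD to RISDD, where 22.5% and 42.6% of all genes changed. Wnt5a encodes a ligand best known for signalling without beta-catenin through ROR receptors. Its signal was 4857, 4871 and 4017 in NIL, 4765, 3751 and 4402 in SDD, 1836 and 2205 in SDDIR, and 876, 1029 and 797 in RISDD. The NIL and SDD libraries overlapped, the SDDIR libraries lay below all of them, and the RISDD libraries lay lowest. Wnt5a fell 2.13-fold from SDD to SDDIR (log2 change -1.09, SE 0.17, adjusted p = 0.00117) and 4.78-fold to RISDD (-2.26, SE 0.15, adjusted p = 1.46e-06). It was 2.24-fold lower in RISDD than in SDDIR (adjusted p = 0.00252).

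Wnt5b, the close relative of Wnt5a, showed the same order with larger steps. It read 207, 184 and 409.6 in NIL, 415, 422 and 291 in SDD, 73.7 and 114 in SDDIR, and 21.0, 21.2 and 17.4 in RISDD. All 3 RISDD values were below both SDDIR values, and those were below every NIL and SDD value. The fall from SDD was 4.01-fold in SDDIR (log2 change -2.00, SE 0.35, adjusted p = 0.00255) and 17.9-fold in RISDD (-4.16, SE 0.32, adjusted p = 3.86e-06). RISDD was 4.45-fold below SDDIR (adjusted p = 0.00501), a call lost on leaving out SDDIR B (adjusted p = 0.0625, within 6.39e-06 to 0.0625 for every alternative run). The RISDD step of Wnt16, at 4.91 to 16.9 in SDD and 1.01 to 3.16 in RISDD, was 3.76-fold down (adjusted p = 0.018), or 1.74-fold with a pseudocount of 10. It was lost on leaving out SDD A, SDD B or RISDD B (adjusted p = 0.0650 to 0.0735) and with quantile scaling (0.0517), over a range of 0.00572 to 0.0735.

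The promoter letters of Wnt5b and of the receptor gene Ror2, both lower in RISDD, are shown because theirs are the windows of members that fell and hold a TCF/LEF or an AP-1 letter pattern. AP-1 is the transcription factor family of Fos and Jun, a known nuclear output of RAS signalling. The windows are the 250 bases before a transcript start from RefSeq on GRCm38.p6, an older build than the GRCm39 used for the counts, and hold 0 exonic bases. Each is written 5′ to 3′ on the gene's own strand, the minus strand, with the match in capitals.
Wnt5b at chr6:119449387-119449636, with CTTTGAT: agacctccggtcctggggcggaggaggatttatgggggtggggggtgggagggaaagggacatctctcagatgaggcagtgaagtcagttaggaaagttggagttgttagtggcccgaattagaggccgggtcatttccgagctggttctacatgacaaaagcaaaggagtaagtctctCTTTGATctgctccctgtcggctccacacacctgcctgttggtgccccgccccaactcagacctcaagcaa
Wnt5b at chr6:119544348-119544597, with TGAGTCA: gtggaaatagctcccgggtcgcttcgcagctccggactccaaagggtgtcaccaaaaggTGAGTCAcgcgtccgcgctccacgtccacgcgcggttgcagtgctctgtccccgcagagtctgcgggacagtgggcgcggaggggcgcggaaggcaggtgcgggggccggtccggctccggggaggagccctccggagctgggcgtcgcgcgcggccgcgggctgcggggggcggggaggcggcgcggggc
Ror2 at chr13:53286125-53286374, with TGAGTCA: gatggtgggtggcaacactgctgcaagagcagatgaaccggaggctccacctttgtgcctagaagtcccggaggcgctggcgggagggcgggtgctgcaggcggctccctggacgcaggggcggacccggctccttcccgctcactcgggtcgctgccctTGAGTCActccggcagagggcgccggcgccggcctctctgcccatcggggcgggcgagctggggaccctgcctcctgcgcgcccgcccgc
The search covered 39 windows of the 30 tested members matched by symbol in the RefSeq table. CTTTGAT or CTTTGAA, on either strand, was in 2 of these windows (5.13%), of Wnt5b and Wnt11, and in 7.48% of all 32851 windows of the table. TGACTCA, on either strand and so also read as TGAGTCA, was in 2 (5.13%), of Wnt5b and Ror2, and in 4.46% of all windows. Both shares are near those of all promoters, and a match of letters is a description, not a site.

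The ligand that came up most was Wnt7b, which is known from epithelia and the developing nervous system. It read 18.7, 34.6 and 9.71 in NIL, 6.77, 29.0 and 14.1 in SDD, 631 and 856 in SDDIR, and 1621, 1380.3 and 1111 in RISDD. Every library with HRAS lay far above every library without it. The rise from SDD was 48.4-fold in SDDIR (log2 change 5.60, SE 0.57, adjusted p = 1.14e-04) and 89.1-fold in RISDD (6.48, SE 0.51, adjusted p = 4.68e-06), or 29.7-fold and 54.4-fold with a pseudocount of 10. RISDD and SDDIR differed by 0.88 (SE 0.57), which did not pass (adjusted p = 0.402).

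Wnt10a, a ligand of skin and its appendages, read 484, 1156 and 911 in NIL, 131, 797 and 246 in SDD, 1074 and 1374 in SDDIR, and 1853, 2033 and 1238 in RISDD. The SDD libraries were spread widely, and all HRAS libraries lay above them. Wnt10a rose 5.64-fold from SDD to RISDD (log2 change 2.50, SE 0.56, adjusted p = 0.00431). Without SDD B this rise was 9.26-fold, and that in SDDIR 6.73-fold. Over every alternative run, the log2 change of Wnt10a from SDD was 1.91 to 3.21 in RISDD and 1.45 to 2.75 in SDDIR. In SDDIR it was 4.10-fold above SDD (adjusted p = 0.0385), a call lost on leaving out SDD A, SDD C, either SDDIR library or any RISDD library (adjusted p = 0.0545 to 0.206, within 0.00286 to 0.206 for every alternative run). The same call did not pass with edgeR, with only the 2 groups fitted and with neither trend nor robust moderation (0.0575 to 0.0765). Wnt6 stayed low, and NIL C came close to the HRAS libraries. Wnt6 read 4.07, 2.23 and 16.5 in NIL, 0 to 3.87 in SDD, 17.8 and 21.2 in SDDIR and 16.6 to 23.5 in RISDD. Only NIL C and the HRAS libraries brought Wnt6 through the filter, so its calls against SDD describe it and support nothing further. Its rise over SDD was 8.13-fold in SDDIR (adjusted p = 0.0223) and 8.58-fold in RISDD (adjusted p = 0.00574). These folds depend on the setting, being 2.47-fold and 2.57-fold with a pseudocount of 10, and 5.13-fold and 5.42-fold without SDD C. Without SDD C or either SDDIR library the SDDIR call of Wnt6 was lost (adjusted p = 0.0660 to 0.135, within 0.00108 to 0.135 for every alternative run).

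Wnt9a, a ligand of joint and liver tissue, took a course of its own. It read 516, 536 and 841 in NIL, 129.7, 159 and 131 in SDD, 158 and 205 in SDDIR, and 369, 450.0 and 374 in RISDD. Values were highest in NIL, lowest in SDD and in between in RISDD, while SDDIR reached into the SDD range. Wnt9a fell 4.40-fold from NIL to SDD (log2 change -2.14, SE 0.21, adjusted p = 2.95e-04) and was 2.83-fold higher in RISDD than in SDD (1.50, SE 0.21, adjusted p = 2.18e-04). The change from SDD to SDDIR was 0.37 (SE 0.23, adjusted p = 0.306). RISDD was 2.19-fold above SDDIR (adjusted p = 0.0146), which was lost on leaving out RISDD B or either SDDIR library (adjusted p = 0.0509 to 0.155, within 8.48e-05 to 0.155 for every alternative run). Wnt2, Wnt4 and Wnt11 were at 2.54 to 53.7 in all libraries. The untested Wnt2b, Wnt7a and Wnt10b reached 18.04, 2.26 and 24.2 at most.

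Porcn, the acyltransferase that readies WNT ligands for secretion, fell along with Wnt5a and Wnt5b in the HRAS groups. Its signal was 213, 158 and 346 in NIL, 302, 156 and 190.4 in SDD, 68.6 and 84.2 in SDDIR, and 32.2, 27.3 and 29.2 in RISDD. The 3 levels SDD, SDDIR and RISDD did not overlap. From SDD it fell 2.71-fold in SDDIR (log2 change -1.44, SE 0.35, adjusted p = 0.0147) and 6.84-fold in RISDD (-2.77, SE 0.32, adjusted p = 5.67e-05). The SDDIR call was lost on leaving out SDD A or either SDDIR library (adjusted p = 0.0511 to 0.119, within 3.18e-04 to 0.119 for every alternative run). RISDD was 2.52-fold below SDDIR (adjusted p = 0.0405). That last call was lost on leaving out NIL A, SDD C, either SDDIR library or any RISDD library (adjusted p = 0.0549 to 0.238, within 3.24e-04 to 0.238 for every alternative run) and with quantile scaling, a pseudocount of 10 or no filter (0.0523 to 0.0609).

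Notum is the secreted enzyme that removes the same lipid and so silences WNT ligands. It read 90.3, 110.4 and 178 in NIL, 41.7, 64.8 and 44.2 in SDD, 22.9 and 51.0 in SDDIR, and 70.5, 98.1 and 95.6 in RISDD. All NIL values were above all SDD values, and Notum was 2.43-fold lower in SDD (log2 change -1.28, SE 0.36, adjusted p = 0.0338). This was lost on leaving out SDD A, SDD C, RISDD B or RISDD C (adjusted p = 0.0541 to 0.112, within 0.00373 to 0.134 for every alternative run), with array weights and with only the 2 groups fitted (0.0838 to 0.134). RISDD lay above SDD by 0.81 (SE 0.36, adjusted p = 0.0933) and above SDDIR by 1.32 (SE 0.40, adjusted p = 0.0654).

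**Figure D2:**
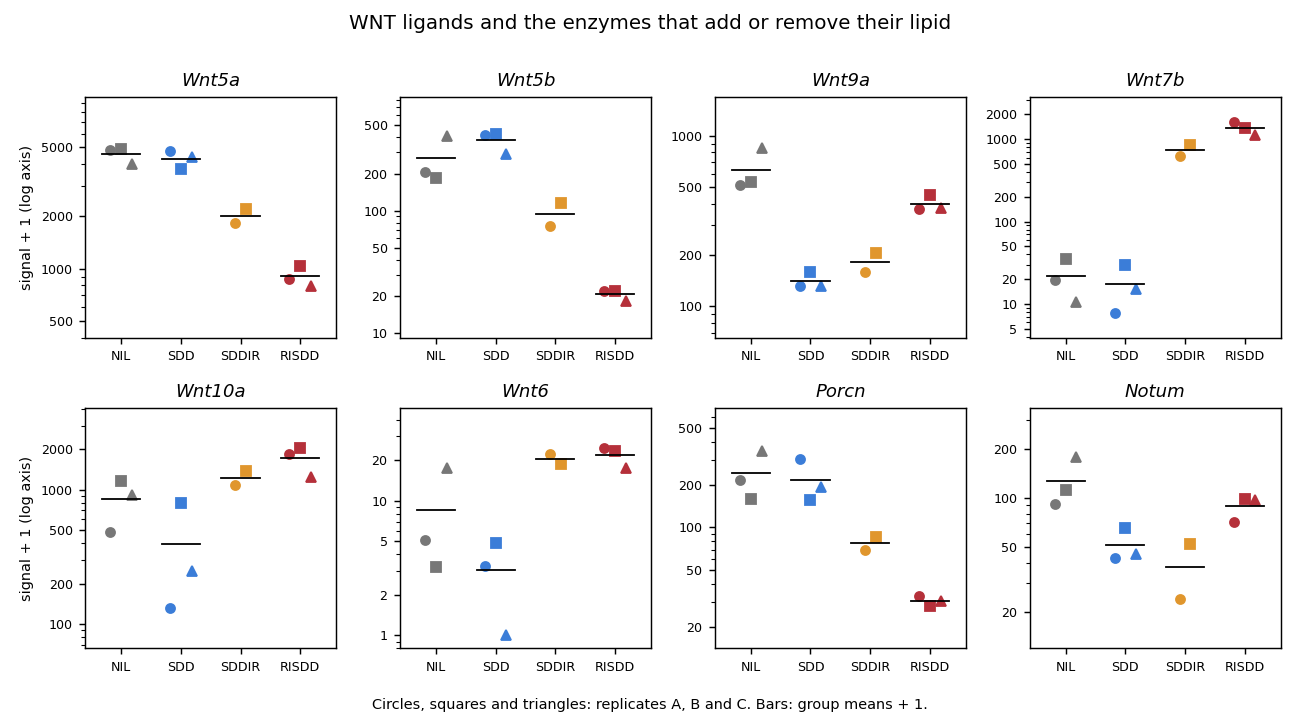
Signal plus 1 on a log axis by group for 6 WNT ligands, Porcn and Notum, with 1 point per library and a bar at each group mean. Wnt5a, Wnt5b and Porcn step down from SDD through SDDIR to RISDD, Wnt7b sits at 631 or above in all HRAS libraries and at 34.6 or below in the rest, and Wnt9a is lowest in SDD.

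Of 9 tested Frizzled genes, 4 fell from SDD to RISDD (Fzd1, Fzd2, Fzd7 and Fzd8), 2 from SDD to SDDIR (Fzd1 and Fzd7) and 1 from NIL to SDD (Fzd5), with 0 rises in any comparison. Of all genes, 42.6%, 22.5% and 17.6% changed in these comparisons, and 22.6%, 13.9% and 8.26% fell. From SDDIR to RISDD, 4 of the 9 fell (Fzd1, Fzd2, Fzd5 and Fzd7), where 9.69% of all genes changed and 5.05% fell. The values below describe the single genes. Fzd1, which can signal through beta-catenin, read 5098, 4611 and 6155 in NIL, 4847, 5305 and 3298 in SDD, 2149.5 and 2590.4 in SDDIR, and 1009, 899 and 744 in RISDD. NIL and SDD overlapped, and SDDIR and RISDD formed separate lower steps. Fzd1 was 1.86-fold lower in SDDIR than in SDD (log2 change -0.90, SE 0.22, adjusted p = 0.0151) and 5.004-fold lower in RISDD (-2.32, SE 0.20, adjusted p = 8.25e-06). RISDD was 2.69-fold below SDDIR (adjusted p = 0.00406).

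Fzd2 is a receptor for Wnt5a as well as for ligands that use beta-catenin. It read 1472, 1118 and 2828 in NIL, 1150.1, 1029.8 and 937 in SDD, 573 and 678 in SDDIR, and 294, 255 and 249.8 in RISDD. The SDDIR libraries lay between SDD and RISDD without overlap, but the change from SDD to SDDIR (-0.73, SE 0.31) did not pass (adjusted p = 0.124). Fzd2 was 3.89-fold lower in RISDD than in SDD (log2 change -1.96, SE 0.28, adjusted p = 2.43e-04) and 2.34-fold lower than in SDDIR (adjusted p = 0.0334).

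Fzd7, a receptor of stem and mesenchymal cells, had little spread between replicates. It read 1248, 1131 and 1236 in NIL, 1446, 1265 and 1101 in SDD, 887 and 897 in SDDIR, and 495, 509 and 511 in RISDD. The drop from SDD was 1.41-fold in SDDIR (log2 change -0.50, SE 0.14, adjusted p = 0.0232) and 2.50-fold in RISDD (-1.32, SE 0.12, adjusted p = 1.32e-05), with RISDD 1.77-fold below SDDIR (adjusted p = 0.00518). Fzd8, at 169 to 255 in SDD and 115 to 124 in RISDD, was 1.79-fold lower in RISDD (adjusted p = 0.00903). With quantile scaling the Fzd8 call was lost (adjusted p = 0.0549, within 3.81e-04 to 0.0549 for every alternative run). Fzd5 was at 693 to 1028 in NIL, 485 to 579 in SDD, 579 and 754 in SDDIR and 297 to 424 in RISDD. It fell 1.64-fold from NIL to SDD (adjusted p = 0.0311) and was 1.76-fold lower in RISDD than in SDDIR (adjusted p = 0.0419).

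Several of these Frizzled calls passed by a small margin and were lost when any of several libraries was left out, and no fold moved by more than 1.5 times. The SDDIR against SDD calls of Fzd1 and Fzd7 were each lost on leaving out SDD A, SDD B or either SDDIR library. Their adjusted p was then 0.0511 to 0.139 for Fzd1 (8.46e-04 to 0.139 for every alternative run) and 0.0624 to 0.132 for Fzd7 (0.00184 to 0.132). In RISDD against SDDIR, Fzd1 was lost on leaving out SDDIR B (adjusted p = 0.05002, within 1.24e-07 to 0.05002 for every alternative run) and Fzd7 without either SDDIR library (0.0509 to 0.0575, and 2.71e-07 to 0.0575). Fzd2 was lost there without SDD B, SDD C, either SDDIR library or any RISDD library (adjusted p = 0.0558 to 0.213, within 1.66e-05 to 0.213 for every alternative run) and with neither trend nor robust moderation (0.0521). The RISDD against SDDIR call of Fzd5 was lost on leaving out any SDD, SDDIR or RISDD library (adjusted p = 0.0590 to 0.329, within 0.00255 to 0.329 for every alternative run), and with quantile scaling, with no filter, and with neither trend nor robust moderation (0.0504 to 0.0583). From NIL to SDD, Fzd5 was lost on leaving out NIL B or any SDD library (adjusted p = 0.0533 to 0.106, within 0.00419 to 0.108 for every alternative run), with array weights and with only the 2 groups fitted (0.0858 to 0.108).

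The Frizzled genes with no change were Fzd3, known from axon guidance and planar polarity, Fzd4, known from blood vessels, Fzd6 and Fzd9. From SDD to RISDD their log2 changes were 0.65 (SE 0.31), 0.27 (SE 0.28), 0.33 (SE 0.24) and 0.51 (SE 0.44). Fzd3 was at 307 to 381 in SDD and 467 to 601 in RISDD, which did not overlap but did not pass the test (adjusted p = 0.114). The untested Fzd10 reached 19.4 at most.

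All 4 calls among the co-receptors in RISDD were falls, and they took in the ROR and RYK arm and Lrp6 (4 of 5 genes, where 22.6% of all genes fell). Ror1 read 108, 76.9 and 64.1 in NIL, 193, 72.5 and 74.3 in SDD, 45.7 and 42.7 in SDDIR, and 16.1, 18.2 and 36.4 in RISDD. SDD A stood above the other SDD libraries, and every RISDD value was below every other library. The fall from SDD to RISDD was 4.44-fold (log2 change -2.15, SE 0.43, adjusted p = 0.00228). Ror2, the receptor most often paired with Wnt5a, fell 2.36-fold (log2 change -1.24, SE 0.24, adjusted p = 0.00197), from 1458 to 1620.3 in SDD to 626 to 696 in RISDD. In SDDIR it was at 852 and 889, a change of -0.82 from SDD (SE 0.27) that did not pass (adjusted p = 0.0535).

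Ryk, an atypical receptor of the kinase fold that also binds WNT ligands, was 2478 to 2527 in SDD, 1667 and 1790.4 in SDDIR, and 1588 to 1742 in RISDD. Below SDD it was 1.45-fold down in SDDIR (adjusted p = 0.0158) and 1.51-fold down in RISDD (adjusted p = 0.00229). The SDDIR call was lost on leaving out SDD C or either SDDIR library (adjusted p = 0.0503 to 0.128, within 5.11e-05 to 0.128 for every alternative run). Lrp6 was 1.31-fold lower in RISDD than in SDD (adjusted p = 0.0438), at 1372 to 1613 against 1905 to 2141. It was lost on leaving out NIL A or any SDD, SDDIR or RISDD library (adjusted p = 0.0502 to 0.160, within 6.32e-04 to 0.160 for every alternative run), and with upper-quartile scaling, no filter, the replicate block or neither trend nor robust moderation (0.0538 to 0.0689). Lrp5 fell 1.88-fold from NIL to SDD (adjusted p = 0.0408), but NIL C at 7363 stood far above NIL A (3311), NIL B (3130.2) and the SDD libraries (2217 to 2291). That call held without NIL C and was lost on leaving out any SDD, SDDIR or RISDD library (adjusted p = 0.0627 to 0.113, within 0.00179 to 0.156 for every alternative run), with no filter, with only the 2 groups fitted and with neither trend nor robust moderation (0.0502 to 0.156).

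**Figure D3:**
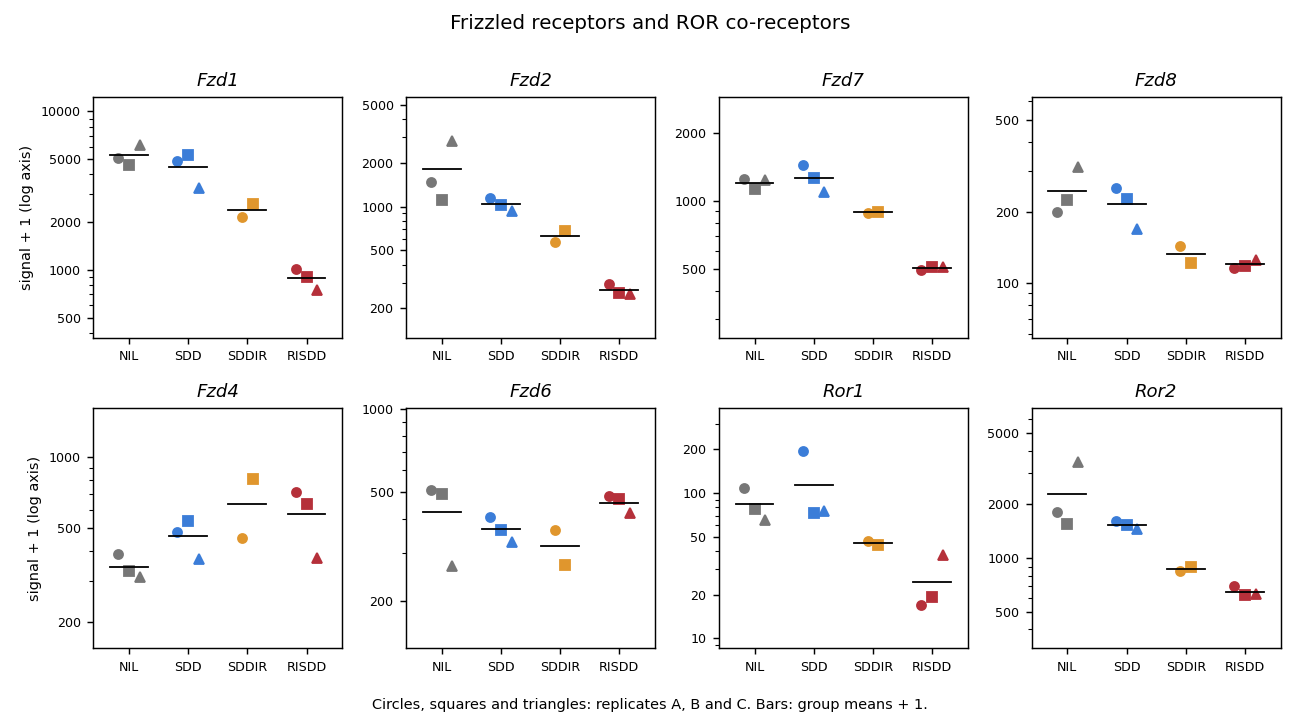
Signal plus 1 on a log axis by group for 6 Frizzled genes, Ror1 and Ror2, with 1 point per library and a bar at each group mean. Fzd1, Fzd2 and Fzd7 step down through SDDIR to RISDD, where Fzd1 sits between 744 and 1009, while Fzd4 overlaps between SDD and RISDD.

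Rspo2 and Rspo3 rose in SDD and were lower than SDD in both HRAS groups. Rspo3, the R-spondin of mesenchyme and endothelium, read 213, 197 and 155 in NIL, 716, 483 and 534 in SDD, 33.0 and 32.01 in SDDIR, and 11.1, 13.1 and 5.53 in RISDD. The 4 groups did not overlap. Rspo3 rose 3.04-fold from NIL to SDD (log2 change 1.60, SE 0.30, adjusted p = 0.00624). From SDD it fell 17.0-fold in SDDIR (-4.09, SE 0.34, adjusted p = 3.79e-05) and 54.9-fold in RISDD (-5.78, SE 0.30, adjusted p = 3.26e-07), the latter 29.5-fold with a pseudocount of 10. RISDD was 3.23-fold below SDDIR (adjusted p = 0.0124), which was lost on leaving out either SDDIR library (adjusted p = 0.0814 to 0.105, within 3.52e-04 to 0.105 for every alternative run).

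Rspo2, known for limb and lung mesenchyme, read 22.0, 25.6 and 37.9 in NIL, 182, 104 and 104 in SDD, 39.0 and 54.5 in SDDIR, and 22.3, 29.3 and 22.9 in RISDD. All SDD libraries lay above every other library, and RISDD lay within the NIL range. The rise from NIL to SDD was 4.40-fold (log2 change 2.14, SE 0.32, adjusted p = 0.00218). Rspo2 fell 2.69-fold from SDD to SDDIR (-1.43, SE 0.36, adjusted p = 0.0159) and 4.94-fold to RISDD (-2.30, SE 0.32, adjusted p = 2.13e-04). The SDDIR call was lost on leaving out SDD A or SDDIR A (adjusted p = 0.0556 to 0.144, within 0.00135 to 0.144 for every alternative run). Rspo1 was at 0 to 27.1 in all libraries and did not change.

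The 3 LGR receptor genes did not move alike. Lgr5, the stem cell receptor of R-spondins, read 107, 62.4 and 189 in NIL, 272, 214 and 157 in SDD, 42.3 and 71.1 in SDDIR, and 37.1, 29.3 and 31.6 in RISDD. The HRAS libraries all lay below the SDD libraries. Lgr5 fell 3.75-fold from SDD to SDDIR (log2 change -1.91, SE 0.43, adjusted p = 0.00982) and 6.26-fold to RISDD (-2.65, SE 0.39, adjusted p = 3.05e-04). Without SDDIR A its SDDIR call was lost (adjusted p = 0.111, within 1.78e-04 to 0.111 for every alternative run). Lgr4, the broadly expressed member, was at 441 to 589 in SDD, 228 and 268 in SDDIR, and 232 to 259.9 in RISDD. It fell 2.05-fold (adjusted p = 0.00535) and 2.03-fold (adjusted p = 0.00133), the first of these calls being lost on leaving out SDDIR B (adjusted p = 0.0619, within 5.78e-05 to 0.0619 for every alternative run).

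Lgr6 went the other way, and only in RISDD was it called above SDD. It read 39.9, 87.0 and 38.8 in NIL, 6.77, 20.3 and 15.4 in SDD, 5.93 and 10.7 in SDDIR, and 109, 83.9 and 118 in RISDD. SDD and SDDIR overlapped at the bottom, and RISDD lay above both. Lgr6 fell 3.75-fold from NIL to SDD (log2 change -1.91, SE 0.46, adjusted p = 0.0185), a call lost on leaving out SDD A (adjusted p = 0.0613) and with only the 2 groups fitted (0.0918), over a range of 6.60e-04 to 0.0918. It was 7.43-fold higher in RISDD than in SDD (2.89, SE 0.46, adjusted p = 5.10e-04) and 11.5-fold higher than in SDDIR (3.52, SE 0.51, adjusted p = 0.00272), or 4.80-fold and 6.204-fold with a pseudocount of 10. The difference between RISDD and SDDIR is the direct test of the 2 HRAS groups, and it passed. Of the ubiquitin ligases these receptors act on, Znrf3 was at 191 to 363 in all libraries with no change, and the untested Rnf43 reached 12.4 at most.

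**Figure D4:**
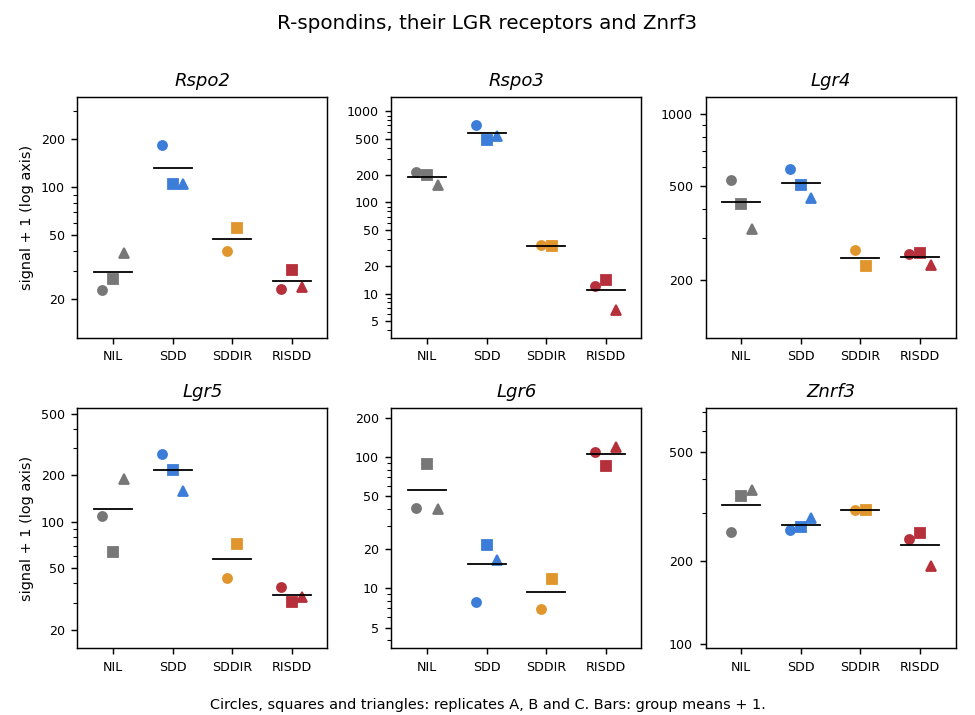
Signal plus 1 on a log axis by group for Rspo2, Rspo3, Lgr4, Lgr5, Lgr6 and Znrf3, with 1 point per library and a bar at each group mean. Rspo2 and Rspo3 peak in SDD, Lgr5 is at 71.1 or below in every HRAS library, and Lgr6 is at 83.9 to 118 in RISDD against 20.3 or below in SDD and SDDIR.

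The antagonists outside the cell split by gene. Of 7 tested, 3 fell from NIL to SDD, and from SDD to RISDD 1 rose and 4 fell, where 17.6% and 42.6% of all genes changed. Dkk2, a ligand of the LRP co-receptors, read 465, 399 and 459 in NIL, 126, 82.2 and 128 in SDD, 156 and 225 in SDDIR, and 609.7, 607 and 542 in RISDD. The 4 groups did not overlap, with SDD lowest and RISDD highest. Dkk2 fell by 1.99 on the log2 scale from NIL to SDD (SE 0.20, adjusted p = 3.61e-04). It was 5.29-fold higher in RISDD than in SDD (log2 change 2.40, SE 0.20, adjusted p = 8.11e-06) and 3.11-fold higher than in SDDIR (adjusted p = 0.00232). In SDDIR it was 1.70-fold above SDD (adjusted p = 0.0358). That call was lost on leaving out SDD B, SDDIR B or any RISDD library (adjusted p = 0.0561 to 0.312, within 0.00623 to 0.312 for every alternative run), and with no filter, the replicate block or only the 2 groups fitted (0.0530 to 0.0615).

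Dkk3, a divergent member of that family, read 737, 843 and 743 in NIL, 302, 227 and 242 in SDD, 126 and 168 in SDDIR, and 155, 141 and 141 in RISDD. It went down at each step until the HRAS groups, which overlapped. The changes were -1.60 from NIL to SDD (SE 0.17, adjusted p = 3.79e-04), -0.80 from SDD to SDDIR (SE 0.19, adjusted p = 0.0106) and -0.81 from SDD to RISDD (SE 0.17, adjusted p = 0.00258). The SDDIR call was lost on leaving out SDDIR A (adjusted p = 0.127, within 4.74e-04 to 0.127 for every alternative run). Wif1, which binds WNT ligands directly, was low throughout, at 54.2 to 76.2 in SDD, 3.39 and 7.11 in SDDIR and 4.04 to 9.48 in RISDD. It fell 11.4-fold from SDD to SDDIR (adjusted p = 5.06e-04) and 9.97-fold to RISDD (adjusted p = 1.05e-04), or 5.08-fold and 4.81-fold with a pseudocount of 10.

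Sfrp2, a secreted Frizzled-related protein of mesenchyme, read 68.4, 42.4 and 223 in NIL, 82.3, 46.4 and 59.6 in SDD, 32.2 and 33.2 in SDDIR, and 195, 141 and 137 in RISDD. NIL C stood above NIL A and NIL B, and RISDD lay above SDD and SDDIR. RISDD was 4.64-fold above SDDIR (log2 change 2.22, SE 0.56, adjusted p = 0.034), which was lost on leaving out SDD B, SDD C, either SDDIR library or any RISDD library (adjusted p = 0.0513 to 0.190, within 3.64e-05 to 0.190 for every alternative run). Against SDD the RISDD change was 1.33 (SE 0.50, adjusted p = 0.0543).

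Its relatives Sfrp1 and Frzb were lower in RISDD than in SDD. Sfrp1 was at 269 to 363 in SDD and 131 to 172 in RISDD, 1.94-fold lower (adjusted p = 0.00815). Frzb was at 536 to 1054 and 223 to 429, 2.15-fold lower (adjusted p = 0.0214), and was lost on leaving out SDD A or RISDD C (adjusted p = 0.0926 to 0.0936, within 0.00199 to 0.0936 for every alternative run). Apcdd1, a membrane protein that binds WNT and LRP proteins, was at 3739 to 5007 in NIL, 2290.1 to 2591 in SDD, 4056 and 5039.7 in SDDIR, and 2483 to 3756 in RISDD. It fell 1.71-fold from NIL to SDD (adjusted p = 0.0147) and rose 1.86-fold from SDD to SDDIR (adjusted p = 0.00822), while RISDD overlapped SDD (adjusted p = 0.198). The first call was lost on leaving out 1 of SDD A and SDD C (adjusted p = 0.0547 to 0.0557) and with array weights (0.0826), over a range of 4.57e-04 to 0.0826. The second was lost on leaving out SDDIR B (adjusted p = 0.0985, within 1.82e-04 to 0.0985 for every alternative run). The untested Dkk1, Sfrp4 and Sfrp5 reached 21.4, 20.3 and 1.19 at most.

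Inside the cell, the 2 naked cuticle genes, which encode inhibitors of Dishevelled, moved in opposite directions in RISDD. Nkd1 read 387, 284 and 556 in NIL, 344, 281 and 312 in SDD, 274 and 363 in SDDIR, and 139, 84.9 and 91.7 in RISDD. The first 3 groups overlapped and RISDD lay below all of them. Nkd1 was 3.02-fold lower in RISDD than in SDD (log2 change -1.59, SE 0.27, adjusted p = 7.22e-04) and 3.06-fold lower than in SDDIR (adjusted p = 0.00849). The latter call was lost on leaving out SDDIR B (adjusted p = 0.0931, within 1.79e-05 to 0.0931 for every alternative run).

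Nkd2 read 168, 165 and 131 in NIL, 46.2, 42.5 and 46.1 in SDD, 69.4 and 71.1 in SDDIR, and 108, 114 and 100.4 in RISDD. The groups did not overlap, with SDD lowest. Nkd2 fell 3.37-fold from NIL to SDD (log2 change -1.75, SE 0.19, adjusted p = 4.11e-04) and was 2.36-fold higher in RISDD than in SDD (1.24, SE 0.19, adjusted p = 3.54e-04). The change from SDD to SDDIR was 0.63 (SE 0.21, adjusted p = 0.0508). The order NIL above RISDD above SDD was shared with Wnt9a.

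Axin2, a scaffold of the beta-catenin destruction complex and a widely used readout of beta-catenin signalling, was at 327 to 487 in NIL, 166, 303 and 173 in SDD, 320.1 and 386 in SDDIR, and 132, 168 and 159 in RISDD. It was 1.96-fold lower in SDD than in NIL (adjusted p = 0.0237) and 2.30-fold lower in RISDD than in SDDIR (adjusted p = 0.0226). Its changes from SDD, 0.77 in SDDIR (SE 0.28, adjusted p = 0.0718) and -0.43 in RISDD (SE 0.25, adjusted p = 0.19), did not pass. The first call was lost on leaving out 1 of SDD A and SDD C (adjusted p = 0.0893 to 0.0953, within 0.00395 to 0.106 for every alternative run), with array weights and with only the 2 groups fitted (each 0.106). The second was lost on leaving out any SDDIR or RISDD library (adjusted p = 0.0592 to 0.174, within 4.11e-04 to 0.174 for every alternative run). Ctnnb1, which encodes beta-catenin, was 1.37-fold lower in SDDIR (9639.6 and 9908) than in SDD (12958 to 13686; adjusted p = 0.00947), a call lost on leaving out either SDDIR library (adjusted p = 0.0598 to 0.0808, within 1.08e-07 to 0.0808 for every alternative run). In RISDD, Ctnnb1 was at 11007 to 11846, a change of -0.22 from SDD (SE 0.09) that did not pass (adjusted p = 0.0796). RISDD against SDDIR did not pass for Ctnnb1 either (adjusted p = 0.189). Axin1 was at 1139 to 1905 throughout, with no change.

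The 4 TCF and LEF genes all changed from SDD to RISDD, 2 up and 2 down, where 42.6% of all genes changed. Tcf7, which encodes TCF1, read 107, 157 and 81.5 in NIL, 23.7, 94.8 and 46.7 in SDD, 277 and 357 in SDDIR, and 404, 329.7 and 372 in RISDD. Lef1 read 14.6, 23.4 and 30.1 in NIL, 18.04, 25.1 and 47.9 in SDD, 118 and 143 in SDDIR, and 137, 159.8 and 179 in RISDD. For both genes, every HRAS library lay above every NIL and SDD library. Tcf7 rose 6.53-fold from SDD to SDDIR (log2 change 2.71, SE 0.47, adjusted p = 0.00244) and 7.63-fold to RISDD (2.93, SE 0.42, adjusted p = 2.73e-04). Lef1 rose 4.52-fold (2.18, SE 0.42, adjusted p = 0.00398) and 5.48-fold (2.45, SE 0.37, adjusted p = 3.83e-04). RISDD and SDDIR differed by 0.22 (SE 0.47, adjusted p = 0.847) for Tcf7 and 0.28 (SE 0.42, adjusted p = 0.774) for Lef1.

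Tcf7l1, which encodes the largely repressive TCF3, read 574, 542 and 1209 in NIL, 725, 868 and 912 in SDD, 451 and 543 in SDDIR, and 309, 296 and 371 in RISDD. RISDD lay below every other library, and it was 2.56-fold below SDD (log2 change -1.36, SE 0.27, adjusted p = 0.00225). Tcf7l2, which encodes TCF4, read 244, 234 and 287 in NIL, 307, 247 and 221 in SDD, 165 and 156 in SDDIR, and 63.1, 74.8 and 98.01 in RISDD. NIL and SDD overlapped, SDDIR lay below them and RISDD lowest. Tcf7l2 fell 3.28-fold from SDD to RISDD (log2 change -1.71, SE 0.20, adjusted p = 7.36e-05), while its change to SDDIR, -0.67 (SE 0.23), did not pass (adjusted p = 0.06). RISDD was 2.06-fold below SDDIR (adjusted p = 0.018), which was lost on leaving out either SDDIR library, RISDD A or RISDD B (adjusted p = 0.0652 to 0.144, within 6.60e-04 to 0.144 for every alternative run).

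**Figure D5:**
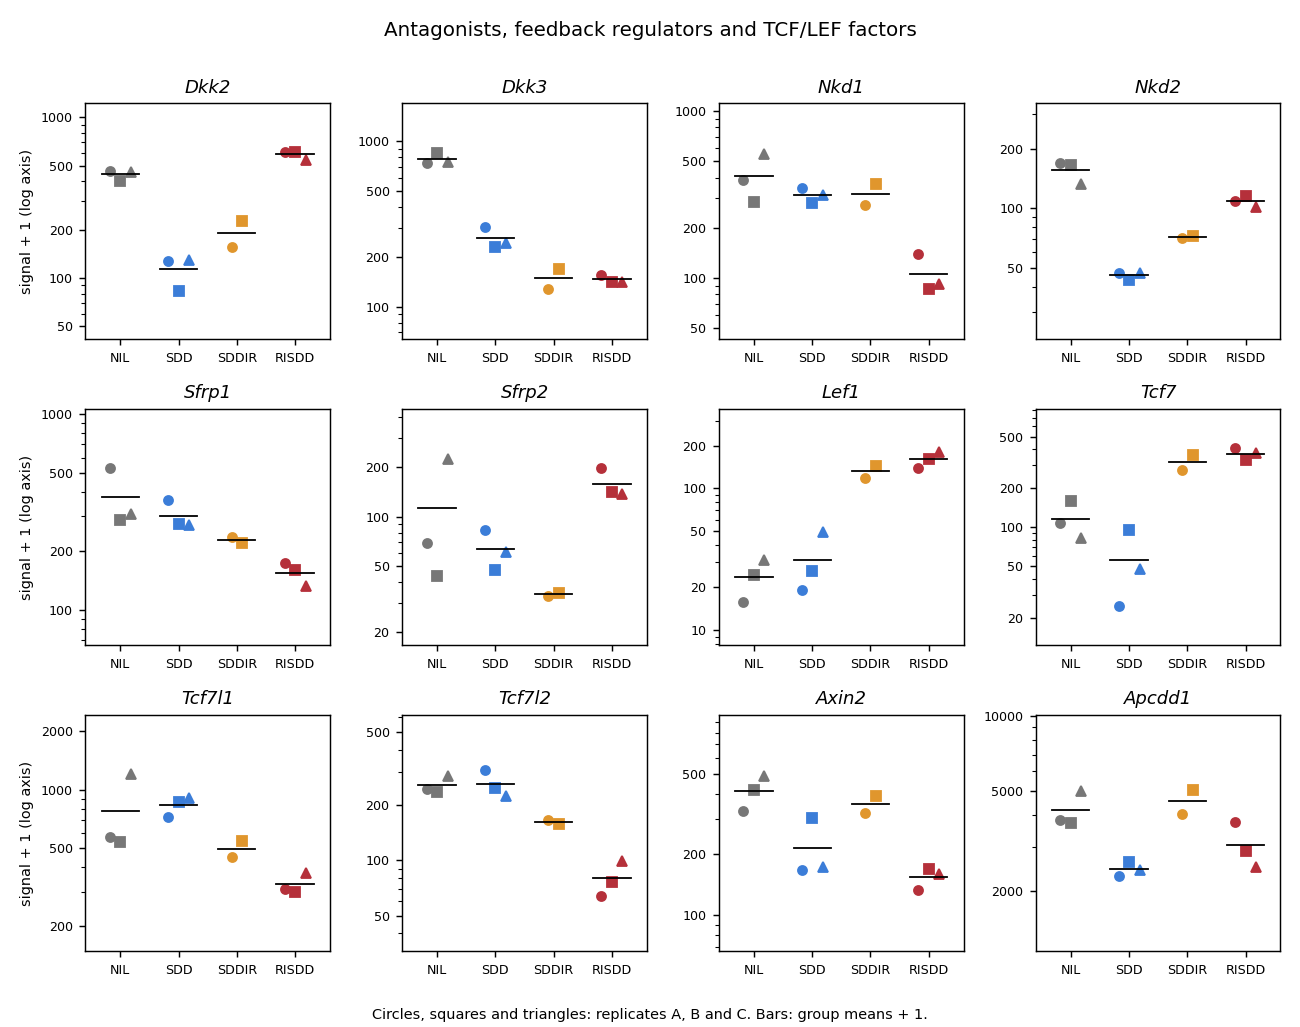
Signal plus 1 on a log axis by group for 12 antagonist, feedback and TCF/LEF genes, with 1 point per library and a bar at each group mean. Dkk2 and Nkd2 are lowest in SDD, Lef1 and Tcf7 are higher in all HRAS libraries than in the rest, and Tcf7l1 and Tcf7l2 are lowest in RISDD.

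Of the 49 genes, 12 share exonic bases with a gene on the opposite strand in the GENCODE annotation of GRCm38: Wnt5a, Wnt7b, Wnt11, Notum, Fzd5, Fzd6, Rspo3, Sfrp2, Axin2, Ctnnb1, Lef1 and Tcf7l1. The libraries were directional per the labels, but whether counting used strand is not stated in the sources at hand, so reads of these partners may not be told apart from those of the members. The overlap was 198 bases for Wnt7b, 404 for Rspo3, 233 for Wnt5a and 1208 for Lef1. Partners with a row of their own in the table reached 56.3 (Ulk4, opposite Ctnnb1) and 1.19 (Gm8398, opposite Wnt11) at most.

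Other genes of the pathway were taken from 4 further lists, to be read against the 17.6%, 22.5%, 42.6% and 9.69% of all genes that changed from NIL to SDD, from SDD to SDDIR, from SDD to RISDD and from SDDIR to RISDD. No difference between lists was tested. The rest of the intracellular machinery (Dishevelleds, kinases, destruction complex and beta-catenin partners) had 1 of 34 tested genes up and 0 down from NIL to SDD, 1 up and 6 down from SDD to SDDIR, 5 up and 5 down from SDD to RISDD, and 1 up and 1 down from SDDIR to RISDD. Pygo1 and Bcl9l, which join beta-catenin to the transcription machinery, were 9.56-fold (adjusted p = 1.01e-05) and 3.93-fold lower (adjusted p = 1.62e-04) in RISDD than in SDD. Amer1, a partner of the destruction complex, was 2.38-fold lower (adjusted p = 9.97e-05). Pygo1 was at 367 to 475 in SDD and 36.4 to 50.7 in RISDD, without overlap.

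Of 24 tested secreted and surface modulators outside the 49, 3 rose and 6 fell from NIL to SDD, 1 rose and 12 fell from SDD to SDDIR, 4 rose and 16 fell from SDD to RISDD, and 0 rose and 10 fell from SDDIR to RISDD. Shisa3, which holds Frizzleds inside the cell, was at 319 to 615 in SDD, 2.54 and 4.74 in SDDIR, and 0 in all 3 RISDD libraries. A count of 0 allows up to 3 reads, or a signal of 3.71 in the RISDD library with the highest such floor. The SDD mean of Shisa3, 419, was 113-fold above that floor. Shisa3 was lower in RISDD than in SDD (adjusted p = 1.67e-07), by 40.9-fold with a pseudocount of 10. Lrp4, a co-receptor related to Lrp5 and Lrp6, was 18.3-fold lower in RISDD than in SDD (adjusted p = 7.26e-07) and 4.16-fold lower than in SDDIR (adjusted p = 0.00201). Rspo4, unlike Rspo2 and Rspo3, rose with HRAS. It was at 9.02 to 18.4 in SDD, 270.2 and 306 in SDDIR, and 629 to 837 in RISDD, 18.9-fold (adjusted p = 1.18e-04) and 47.7-fold higher (adjusted p = 2.10e-06), or 12.1-fold and 30.1-fold with a pseudocount of 10. Draxin, which encodes an axon guidance protein that binds LRP6, rose 7.90-fold from NIL to SDD (adjusted p = 0.00239) and fell 9.27-fold from SDD to SDDIR (adjusted p = 0.00144), or 5.87-fold with a pseudocount of 10. Shisa2 was 8.07-fold lower in RISDD than in SDDIR (adjusted p = 5.23e-04).

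Among planar cell polarity and WNT-calcium genes, 3 of 27 rose and 4 fell from NIL to SDD, 2 rose and 10 fell from SDD to SDDIR, 4 rose and 13 fell from SDD to RISDD, and 1 rose and 4 fell from SDDIR to RISDD. Dact1, a Dishevelled-binding protein, was 2.92-fold lower in SDDIR (adjusted p = 0.00403) and 7.60-fold lower in RISDD (adjusted p = 1.19e-05) than in SDD. Prickle2, a core polarity protein, was 5.65-fold lower in RISDD than in SDD (adjusted p = 4.57e-06). Nlk, a kinase that acts on TCF and LEF factors, was 2.97-fold (adjusted p = 0.00213) and 4.90-fold higher (adjusted p = 3.00e-05) in SDDIR and RISDD.

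Genes reported elsewhere as WNT targets moved both ways. Of 24 tested, 5 rose and 4 fell from NIL to SDD, 2 rose and 8 fell from SDD to SDDIR, 6 rose and 10 fell from SDD to RISDD, and 4 rose and 3 fell from SDDIR to RISDD. Ccn4, first named as a WNT-induced secreted protein, was at 3245 to 3907 in SDD, 567 and 710.1 in SDDIR, and 182 to 249.8 in RISDD. It fell 5.75-fold (adjusted p = 1.97e-05) and 16.6-fold (adjusted p = 8.70e-08). Bmp4, a growth factor of mesenchyme, fell 15.1-fold from SDD to SDDIR (adjusted p = 3.04e-05) and 65.5-fold to RISDD (adjusted p = 1.67e-07). Plaur, the urokinase receptor, which is also a known RAS-responsive gene, was 13.8-fold higher in RISDD than in SDD (adjusted p = 1.10e-05). Ccnd1, which encodes cyclin D1, was 2.35-fold lower in SDD than in NIL (adjusted p = 0.00578).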

How the data were processed

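Polyadenylated RNA of sorted mouse embryonic fibroblasts was sequenced 4 days after infection. The submitters' processing notes name Trim Galore 0.6.10, Salmon 1.10.3 and GRCm39, and how transcripts were summed and libraries scaled is not stated in them. The authors deposited signal, that is, gene counts over 1 factor for each library. All values were whole multiples of the smallest nonzero value in their library (100% at a tolerance of 0.001), which gave the reads back. Of 12 value columns, 1 repeated the SDDIR B heading with identical values and was not used, and whether SDDIR B is replicate B or C cannot be settled.

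Genes that reached 10 in 3 or more of 11 libraries were fitted with limma 3.58.1 (R 4.3.3) after taking log2(value + 1), all 4 groups in 1 model with trend and robust moderation, and adjusted by Benjamini-Hochberg over 14207 genes (threshold 0.05). The code was tested on simulated data. Members and lists were chosen with earlier results of these data known. Members with a change and a group mean of at least 100 are given in every library, up to 24 by largest change. From each further list, named genes are among the 3 largest changes per comparison, and not all of these are named. Alternatives were scaling by the upper quartile or by quantiles, a pseudocount of 0.5 or 10, no filter, a minimum of 50, neither trend nor robust moderation, array weights, only the 2 groups compared, a replicate block, the repeated column counted, edgeR 4.0.16 and DESeq2 1.42.0 on the recovered reads, and each library left out.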

Additional observations from a re-analysis of the deposited data

How the results depend on the processing

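Of 79 calls of single WNT genes, 44 held under every alternative that gave a value, 35 were lost under at least 1, and 0 changed direction. The calls that held were 6 of 12 in SDD against NIL, 7 of 20 in SDDIR against SDD, 28 of 32 in RISDD against SDD and 3 of 15 in RISDD against SDDIR. With 1 library left out, the number of changed WNT genes ranged from 6 to 19, from 10 to 32, from 29 to 39 and from 3 to 23 in that order. Where SDDIR was left with 1 library, that library was assumed to vary like the other groups. With array weights the counts were 34 in SDDIR against SDD and 30 in RISDD against SDDIR, and with only the 2 groups fitted they were 7 in SDD against NIL and 25 in RISDD against SDDIR. The cause was not tested. A replicate block gave 13, 20, 33 and 16. Whether the replicate letters pair the libraries was not settled. The correlation of same-lettered deviations was 0.0002253 to 0.2164 over the pairs, and not above 0.1 in every pair. Libraries with different letters were not compared in this way, so these values have no reference. Genes with a signal near 10, such as Wnt6 and Wnt16, rest on few reads, and a missed call there does not show equal levels.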
